A study of Mus musculus with 31 samples.

Results

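Gcnt1 and 7 further genes that build, carry or compete with the selectin ligands of leukocytes were followed in sorted regulatory T cells (Tregs). The members were the rows of the count file named Gcnt1, Fut7, Fut4, St3gal4, St3gal6, Selplg, B4galt1 and Ggta1, so 8 of 24594 genes, and each occurred once. Measured values of these libraries were used in choosing the members. Gcnt1 is treated here as chosen by its read counts in tumor-bearing and healthy mice, so its levels and fold changes are a description and carry no test. The 7 others are treated as chosen for their function and were tested, but results of these data were known, so their tests may not be free of that choice. All 8 passed the filter on low counts that left 15202 genes, Fut4 only through the mammary gland and tumor libraries.

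RNA was sequenced in 31 libraries of CD3+ CD4+ CD25+ cells, gated as live, CD45+ and CD8-, from mice on the FVB/N background; FOXP3 was not part of the gate. KEP mice were K14cre;Cdh1F/F;Trp53F/F, in which a keratin 14 promoter drives Cre in epithelium, and carried mammary tumors of 225 mm2. Wild-type (WT) mice were littermates with the same floxed Cdh1 and Trp53 alleles and no Cre. Spleen, lung, blood and lymph node (in KEP mice the node draining the tumor) gave 3 libraries per genotype, tumors gave 3 KEP libraries and healthy mammary gland gave 4 WT libraries. A KEP library came from 1 mouse and a WT library from a pool of 3, so the spread among WT libraries is between pools. The ages of the mice are not given in the sources used here. Libraries of the 2 genotypes never share a date in their titles, so date and genotype cannot be told apart.

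Selectins are lectins of endothelium, platelets and leukocytes that slow leukocytes in flowing blood, which lets them roll and enter tissue. They bind sialyl Lewis X, a sialylated and fucosylated sugar that sits at the tip of branched O-glycans on carriers such as PSGL-1. GCNT1 opens the core 2 branch, B4GALT1 adds galactose to it, ST3GAL4 and ST3GAL6 add sialic acid, and FUT7 and FUT4 add fucose. GGTA1 instead caps the same galactose with another galactose, which takes the end that sialic acid would occupy.

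The 250 bases upstream of 3 annotated starts, from RefSeq on GRCm38.p6, are shown for the gene that led the choice and for the 2 tested members with the widest log2 differences between KEP and WT among those above 1 CPM. Each is written 5′ to 3′ on its gene's strand. Capitals mark TTATCT, the reverse complement of the GATA factor motif AGATAA. The Gcnt1 window is chr19:17356668-17356917 (minus strand), that of Fut7 chr2:25422992-25423241 (plus strand) and that of St3gal6 chr16:58524254-58524503 (minus strand).
Gcnt1: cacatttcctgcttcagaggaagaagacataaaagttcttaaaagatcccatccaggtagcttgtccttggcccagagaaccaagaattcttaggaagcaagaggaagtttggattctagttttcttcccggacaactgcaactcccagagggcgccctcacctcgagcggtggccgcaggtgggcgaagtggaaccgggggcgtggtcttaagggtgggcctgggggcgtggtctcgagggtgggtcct
Fut7: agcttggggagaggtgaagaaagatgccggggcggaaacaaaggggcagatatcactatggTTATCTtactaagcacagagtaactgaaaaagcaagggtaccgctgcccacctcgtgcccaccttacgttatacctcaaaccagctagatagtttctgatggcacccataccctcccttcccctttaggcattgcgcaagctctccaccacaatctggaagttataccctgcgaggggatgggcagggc
St3gal6: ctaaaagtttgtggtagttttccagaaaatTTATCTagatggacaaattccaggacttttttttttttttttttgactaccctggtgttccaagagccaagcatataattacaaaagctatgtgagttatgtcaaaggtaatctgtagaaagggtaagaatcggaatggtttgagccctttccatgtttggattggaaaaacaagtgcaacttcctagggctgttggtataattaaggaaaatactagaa

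Windows were on hand for 7 members, and Selplg was not matched. Gcnt1 had 3 windows and Fut7 and St3gal6 had 2 each. Only the window nearest the gene's 5′ end in the count file was searched. The start used for Ggta1 lay 1782 bases from that end. Motifs for 5 families of factors were searched on both strands. These were AGATAA for GATA factors, TTCNNNGAA for STAT proteins, TGANTCA for AP-1 dimers, AGGTGTGA for T-box factors and GGGTGTGG for KLF proteins. They occurred in 9.99%, 7.02%, 6.75%, 1.12% and 3.2% of the 32851 windows of this length in the table. The GATA letters stood 189 to 184 bases before the start of Fut7 and 220 to 215 bases before that of St3gal6. B4galt1 had a STAT match, TTCCGCGAA, 99 to 91 bases before its start. The searched windows of Gcnt1, Fut4, St3gal4 and Ggta1 held none of these letters. The motifs do not overlap each other in any of the 7 windows.

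Total counts ran from 8154765 to 15258958 per library. Levels are CPM, counts scaled to the library total, after TMM scaling, given as mean ± SD with n = 3 libraries (n = 4 for mammary gland). The summed CPM of 10 pan-T genes checked the gate. In the 24 libraries from these 4 tissues, tumor and gland aside, it lay between 84.5% and 106% of the WT spleen mean. It was 110%, 64.4% and 33.4% in tumor replicates 1 to 3. In mammary gland replicates 1 to 4 it was 7.85%, 33.7%, 2.87% and 3.71%, beside epithelial marker sums of 4686 to 6475 CPM. The gland libraries thus stand apart and hold mostly other RNA, so results from the 4 tissues are given first and those from gland and tumor afterwards. In bulk RNA, fewer cells with a transcript cannot be told apart from less of it per cell.

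Gcnt1 (ENSMUSG00000038843, chr19:17326141-17356667 on GRCm38) encodes the enzyme that starts the core 2 branch of O-glycans. In spleen it was at 13.9, 11.3 and 10.9 CPM in the WT pools and at 30.6, 33.6 and 35.8 CPM in KEP mice. Every KEP spleen lay above every WT spleen. The means were 33.4 ± 2.64 and 12.04 ± 1.63 CPM, a fold of 2.77 and a log2 difference of 1.47 (SE 0.18).

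In lung, Gcnt1 was at 34.8, 23.9 and 27.1 CPM in WT and 68.9, 63.9 and 64.7 CPM in KEP libraries, again without overlap. The log2 difference was 1.20 (SE 0.18), a fold of 2.30. In blood it was at 55.6, 36.1 and 41.8 CPM in WT and 71.9, 66.7 and 81.3 CPM in KEP libraries. These groups did not overlap either, at a log2 difference of 0.72 (SE 0.17) and a fold of 1.65. In lymph node the groups overlapped: 71.0, 51.8 and 46.0 CPM in WT and 73.5, 57.4 and 74.0 CPM in KEP libraries, a log2 difference of 0.28 (SE 0.17).

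**Figure D1:**
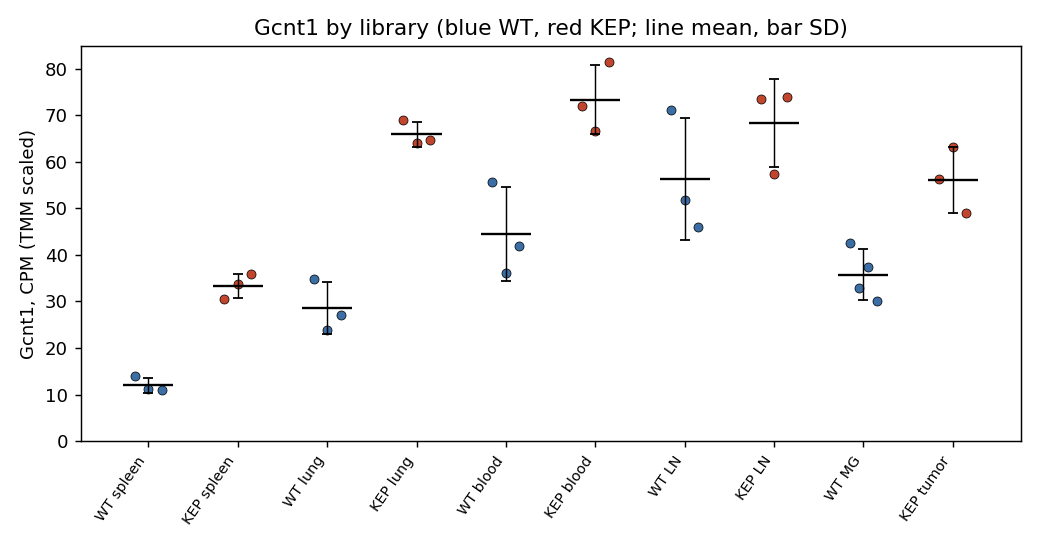
Gcnt1 level in CPM (vertical axis) in each of the 31 libraries, by group (LN lymph node, MG mammary gland); blue points are WT pools, red points KEP mice, the line is the mean and the bar the SD. WT spleen is lowest at 10.9 to 13.9 CPM, and KEP blood has the highest mean at 73.3 CPM.

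Among WT tissues Gcnt1 was lowest in spleen, and no WT spleen library reached the level of any other library in the study. The mean was 12.04 ± 1.63 CPM in spleen, 28.6 ± 5.60 in lung, 44.5 ± 10.0 in blood and 56.3 ± 13.1 in lymph node. Against spleen, the log2 difference was 1.25 (SE 0.18) for lung, 1.89 (SE 0.18) for blood and 2.23 (SE 0.18) for lymph node. Ordered by mean over the 10 groups, KEP blood came first at 73.3 CPM, then KEP lymph node (68.3), KEP lung (65.9), WT lymph node (56.3), tumor (56.1), WT blood (44.5), mammary gland (35.8), KEP spleen (33.4), WT lung (28.6) and WT spleen (12.04). Of the neighbours in this order, WT lung and WT spleen alone did not overlap.

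Markers of the sorted cells and of others also differed between KEP and WT libraries, some higher and some lower. All 5 genes of the Treg list were above 0 in each of the 24 libraries. Their summed level was 2705 to 3516 CPM in KEP against 1884 to 2286 CPM in WT spleen, 5727 to 6043 against 3676 to 4486 in lung, 3915 to 4873 against 2201 to 2972 in blood, and 3486 to 3826 against 2647 to 3482 in lymph node. The ranges of the Treg sum thus did not overlap in any tissue, the KEP libraries being higher. The sum of 5 platelet genes in blood was 215 to 336 CPM in KEP and 92.6 to 208 in WT libraries. The sum of 5 CD8 and NK cell genes was lower in KEP libraries without overlap in spleen (84.0 to 168 against 174 to 281 CPM), lung (49.9 to 82.0 against 94.1 to 125) and lymph node (30.7 to 34.7 against 43.7 to 53.1), and overlapped in blood (43.7 to 140 against 82.0 to 239). The sum of 8 macrophage and monocyte genes was lower in KEP lung (38.5 to 79.2 against 98.0 to 169 CPM) and higher in KEP spleen (16.9 to 36.5 against 8.67 to 12.7) and lymph node (16.4 to 20.6 against 7.64 to 15.8), without overlap, and overlapped in blood. The sum of 5 B cell genes was higher in KEP lymph node (23.7 to 31.2 against 11.9 to 16.5 CPM) and overlapped elsewhere. That of 8 epithelial genes was higher without overlap in KEP blood (24.8 to 43.6 against 5.89 to 15.6 CPM), spleen (15.2 to 25.6 against 8.46 to 10.3) and lung (25.6 to 33.04 against 15.4 to 25.2). The sum of 7 neutrophil genes, whose cells also make selectin ligands, was 4.78, 0.527 and 71.0 CPM in KEP spleen replicates 1 to 3. It was at most 0.188 in WT spleens, where all 7 were at 0 in at least 1 library. It overlapped in blood (0.104 to 20.95 CPM in KEP against 0.104 to 0.391 in WT), lung (2.34 to 22.3 against 0.226 to 3.34) and lymph node (0 to 2.72 against 0 to 0.186). The part of these differences in the results was not tested.

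B4galt1 (ENSMUSG00000028413, chr4:40804602-40854005), which extends the branch with galactose, had a slightly lower mean in KEP libraries of each of the 4 tissues, and no difference passed the test. In spleen it was at 282, 309 and 310.2 CPM in WT and 245, 275 and 266 CPM in KEP libraries, without overlap. The log2 differences were -0.20 (SE 0.10, adjusted p = 0.673) in spleen, -0.21 (SE 0.10, adjusted p = 0.294) in blood, -0.16 (SE 0.10, adjusted p = 0.441) in lung and -0.13 (SE 0.10, adjusted p = 1) in lymph node. These adjusted p-values, and those that follow, come from edgeR's quasi-likelihood test on all 31 libraries with Benjamini-Hochberg adjustment over the 15202 genes. Small genes (Mir5123, Gm24112 and Gm25931) lie within B4galt1 on the same strand, so its counts are uncertain to that extent.

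St3gal4 (ENSMUSG00000032038, chr9:35046579-35116810), a sialyltransferase of the ligand, showed similar levels in both genotypes. In lung it was at 41.9, 42.5 and 47.2 CPM in WT and 43.3, 45.5 and 46.8 CPM in KEP libraries, and the groups overlapped in all 4 tissues. The log2 differences ran from -0.16 (SE 0.16, blood) to 0.04 (SE 0.16, lung), and the smallest adjusted p of edgeR's test was 0.675. St3gal4 overlaps 4930581F22Rik on the opposite strand and the strand setting of the counts is not given in the sources used here, so its counts are uncertain.

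St3gal6 (ENSMUSG00000022747, chr16:58468125-58524243), the other sialyltransferase, had a lower mean in KEP than in WT libraries of all 4 tissues, and the test called it in none. In lymph node it was at 25.5, 17.2 and 15.9 CPM in WT and 4.94, 4.30 and 7.33 CPM in KEP libraries. Each KEP node was below each WT node, by a log2 difference of -1.82 (SE 0.48, adjusted p = 0.264 by edgeR's test). In lung the values were 46.9, 31.1 and 32.6 CPM in WT and 21.5, 22.1 and 18.9 CPM in KEP libraries, also without overlap, at -0.82 (SE 0.46, adjusted p = 0.338). Blood and spleen overlapped. In blood the WT libraries were at 29.8, 16.1 and 40.2 CPM and the KEP libraries at 9.40, 19.9 and 5.15 CPM, a difference of -1.32 (SE 0.47, adjusted p = 0.109). In spleen the WT libraries were at 22.3, 25.6 and 43.3 CPM and the KEP libraries at 12.99, 23.3 and 11.9 CPM, a difference of -0.92 (SE 0.46, adjusted p = 0.638).

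The calls for St3gal6 depended on which libraries entered the fit. With edgeR on the 6 libraries of each comparison alone, it passed in lung (adjusted p = 0.00409) and lymph node (adjusted p = 0.00632). With the 24 libraries of the 4 tissues, it passed in blood (adjusted p = 0.0446), and with DESeq2 in lymph node (adjusted p = 0.0491). The blood call was kept in 2 of the 6 fits of those libraries that left out 1 of the libraries compared. The CD8 and NK cell sums moved with St3gal6, being lower in KEP spleen, lung and lymph node. Among WT blood libraries 1, 2 and 3 they were 180, 82.0 and 239 CPM, in the same order as St3gal6. WT spleen and WT lymph node also shared the order. WT lung did not, with sums of 94.1, 125 and 101 CPM beside St3gal6 at 46.9, 31.1 and 32.6 CPM. In KEP blood, spleen, lung and lymph node the library with the highest sum also had the highest St3gal6, while the order of the lower libraries was not shared. The part of these sums was not tested. St3gal6 overlaps Dcbld2 on the opposite strand, so its counts are uncertain as well.

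Fut7 (ENSMUSG00000036587, chr2:25423267-25426374) encodes the fucosyltransferase that completes sialyl Lewis X in leukocytes. Its mean was higher in KEP than in WT libraries of each tissue. In spleen it was at 5.82, 6.51 and 5.98 CPM in WT and 15.5, 14.2 and 19.5 CPM in KEP libraries. All KEP spleens lay above all WT spleens. The log2 difference was 1.43 (SE 0.38), with an adjusted p of 0.104 by edgeR's test on the 31 libraries. In lung it was at 4.88, 2.80 and 2.94 CPM in WT and 8.18, 7.10 and 7.68 CPM in KEP libraries, without overlap, at 1.11 (SE 0.40, adjusted p = 0.121).

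In blood Fut7 was at 16.3, 11.4 and 22.9 CPM in WT and 22.7, 28.9 and 31.3 CPM in KEP libraries, with a narrow overlap, at a log2 difference of 0.71 (SE 0.36, adjusted p = 0.303 by edgeR). In lymph node it was at 12.5, 10.8 and 12.01 CPM in WT and 20.1, 11.2 and 20.7 CPM in KEP libraries, with overlap, at 0.56 (SE 0.37, adjusted p = 0.961). Thus edgeR's test on the 31 libraries called Fut7 between genotypes in no tissue. In the fit of the 24 libraries of the 4 tissues the SE fell to 0.23 in spleen, 0.27 in lung and 0.22 in blood. There Fut7 passed edgeR's test in spleen at a log2 difference of 1.43 (adjusted p = 3.58e-04). It also passed in lung at 1.09 (adjusted p = 0.00675) and in blood at 0.69 (adjusted p = 0.0284). In lymph node it did not pass at 0.57 (adjusted p = 0.256). In that fit, spleen and lung kept their calls when any 1 of the libraries compared was left out, and blood kept its call in 2 of 6 such fits. DESeq2 on all libraries called spleen (adjusted p = 0.0219).

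Among WT blood, spleen, lung and lymph node, the mean of Fut7 was highest in blood and lowest in lung. Blood was above spleen by a log2 difference of 1.47 (SE 0.38, adjusted p = 0.0177 by edgeR), and the groups did not overlap. This call was kept without WT blood replicate 1 or replicate 2 and lost without WT blood replicate 3 or any 1 WT spleen library, at an adjusted p of 0.0151 to 0.0853 over the 6 fits. Lymph node was at 0.94 (SE 0.38, adjusted p = 0.298) and lung at -0.78 (SE 0.40, adjusted p = 0.158) against spleen, both without overlap and both called in the fit of 24 libraries (adjusted p = 0.0114 and 0.0233). Leaving out 1 of the libraries compared within that fit kept the lymph node call in 5 of 6 fits and the lung call in 2 of 6. In lung Gcnt1 thus lay above the spleen level and Fut7 had a lower mean than in spleen.

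Fut4 (ENSMUSG00000049307, chr9:14748459-14752122), the second fucosyltransferase, was near 0 in the 24 libraries of the 4 tissues. Its highest value there was 0.658 CPM, in a KEP lymph node, and it was 0 in 1 library each of KEP blood, WT lung and WT spleen. Group means lay between 0.119 and 0.546 CPM, no comparison of KEP with WT was called, and none of these levels is read as a difference.

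Selplg (ENSMUSG00000048163, chr5:113817798-113830501) encodes PSGL-1, the main carrier protein of selectin ligands on leukocytes. It had the highest mean CPM of the 8 genes in every group but mammary gland, where that of B4galt1 was higher. In blood it was at 972, 891 and 1042 CPM in WT and 1090.4, 1271 and 1165 CPM in KEP libraries. All KEP blood libraries were above all WT blood libraries, by a fold of 1.21. The log2 differences were 0.28 in blood, 0.20 in spleen, 0.22 in lung and 0.06 in lymph node, each with an SE of 0.52 and an adjusted p of 0.860 or more by edgeR. In blood, spleen and lung the genotypes did not overlap. The gland and tumor libraries, in which Selplg ran from 23.5 to 1014 CPM, share the estimate of spread behind that SE. In the fit of 24 libraries the SE was 0.08, and the difference in blood was 0.26 (adjusted p = 0.0268; called in 2 of 6 fits without 1 library, at up to 0.111), in spleen 0.20 (adjusted p = 0.217) and in lung 0.22 (adjusted p = 0.0715).

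Ggta1 (ENSMUSG00000035778, chr2:35400179-35463231), which makes the alpha-galactose cap, was the member called between KEP and WT mice. It was higher in KEP blood, spleen and lung. In lung it was at 37.8, 34.2 and 43.5 CPM in WT and 79.7, 69.3 and 80.2 CPM in KEP libraries. The log2 difference was 0.99 (SE 0.13, adjusted p = 6.45e-04 by edgeR), a fold of 1.98. In blood it was at 39.2, 38.7 and 41.8 CPM in WT and 73.8, 76.5 and 60.2 CPM in KEP libraries, at 0.81 (SE 0.13, adjusted p = 0.00167). In spleen it was at 27.9, 25.6 and 30.4 CPM in WT and 45.2, 44.0 and 46.0 CPM in KEP libraries, at 0.69 (SE 0.13, adjusted p = 0.0122). None of these groups overlapped.

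In lymph node Ggta1 was at 34.2, 34.2 and 30.6 CPM in WT and 44.8, 41.7 and 42.1 CPM in KEP libraries. These did not overlap either, but the difference of 0.38 (SE 0.13) had an adjusted p of 0.641 by edgeR, and of 0.041 with only these 6 libraries. The spleen call was lost without WT spleen replicate 1 (adjusted p = 0.063), WT spleen replicate 2 (0.101) or KEP spleen replicate 3 (0.0677). With libraries scaled to the pan-T genes instead, the calls in blood, spleen and lung were lost, while the log2 differences were 0.78, 0.66 and 0.88. Gm43761 lies within Ggta1 on the same strand, so its counts are uncertain to that extent. The Treg sums given beside Gcnt1 moved with Ggta1, Fut7 and Selplg in the same tissues, and their part was not tested.

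**Figure D2:**
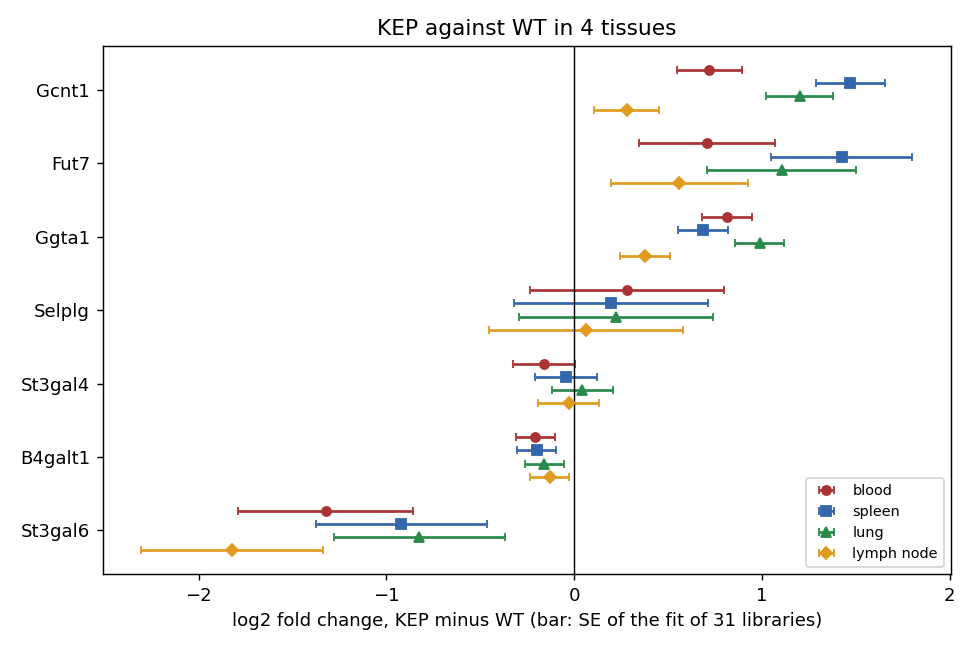
Log2 fold change of 7 members (horizontal axis, KEP minus WT) in 4 tissues; points are estimates from edgeR on 31 libraries and bars their SE, and Fut4 is left out because it was near 0. Gcnt1, Fut7 and Ggta1 lie right of 0 in every tissue and St3gal6 left of it.

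Counted over the 7 tested members, 1 was called in blood, where 4.32% of all genes tested were called in either direction, and this was Ggta1. In spleen it was 1 of 7, again Ggta1, with 0.447% of all genes called. In lung it was 1 of 7, Ggta1, with 3.09% called. In lymph node it was 0 of 7, with 0.0132% of all genes called by edgeR and 874 genes at an unadjusted p under 0.05. There edgeR on the 6 libraries alone called 2 members, St3gal6 and Ggta1, beside 305 genes in all. DESeq2 called 1 member beside 40 genes, and the fit of 24 libraries 0 members beside 133 genes. Calls thus rose for all genes too in these fits. Genotypes did not overlap for 3 of the 7 members in blood (28.8% of all genes), 4 in spleen (21.9%), 4 in lung (30%) and 4 in lymph node (21.2%), where 1 of them was Fut4 at levels near 0.

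Whether the genotype difference itself varied among the 4 tissues was tested in 1 model. Of the 7 members 0 were called, as were 0% of all genes, with edgeR; 544 genes had an unadjusted p under 0.05, DESeq2 called 18 genes and the fit of 24 libraries 39. Ggta1 had the smallest p of the members, 0.0214 (adjusted p = 1 by edgeR). The smaller value of Ggta1 in lymph node than in spleen is therefore not shown to differ between tissues. Gcnt1 was not tested here, so nothing is drawn from this model about its log2 differences of 1.47 (SE 0.18) in spleen and 0.28 (SE 0.17) in lymph node.

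Between WT tissues, Ggta1 was above the spleen level in blood (0.51, SE 0.13, adjusted p = 0.0183 by edgeR) and lung (0.46, SE 0.13, adjusted p = 0.0112), and B4galt1 in lung (0.33, SE 0.10, adjusted p = 0.0189). The Ggta1 call in blood was lost without WT blood replicate 3 (adjusted p = 0.0585) or WT spleen replicate 2 (0.0942), and that in lung without WT lung replicate 3 (0.0784) or WT spleen replicate 2 (0.0645). B4galt1 in lung was at 358, 390 and 387 CPM, above all WT spleens, and lost its call without the filter on low counts (adjusted p = 0.0568) or without WT spleen replicate 1 (0.109), WT lung replicate 2 (0.0612) or WT lung replicate 3 (0.0594). In all, 2 of 7 members were called in blood (7.88% of all genes), 2 in lung (27%) and 0 in lymph node (1.95%). In lymph node 1576 genes had an unadjusted p under 0.05. The fit of 24 libraries called 1 member there, Fut7, beside 7.269% of the genes tested on 31 libraries. The lung share is near that of all genes. Macrophage and monocyte marker sums were 98.0 to 169 CPM in WT lung and 8.67 to 12.7 in WT spleen, and their part was not tested. These comparisons use the same WT spleen libraries as the comparison of KEP with WT spleen.

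**Figure D3:**
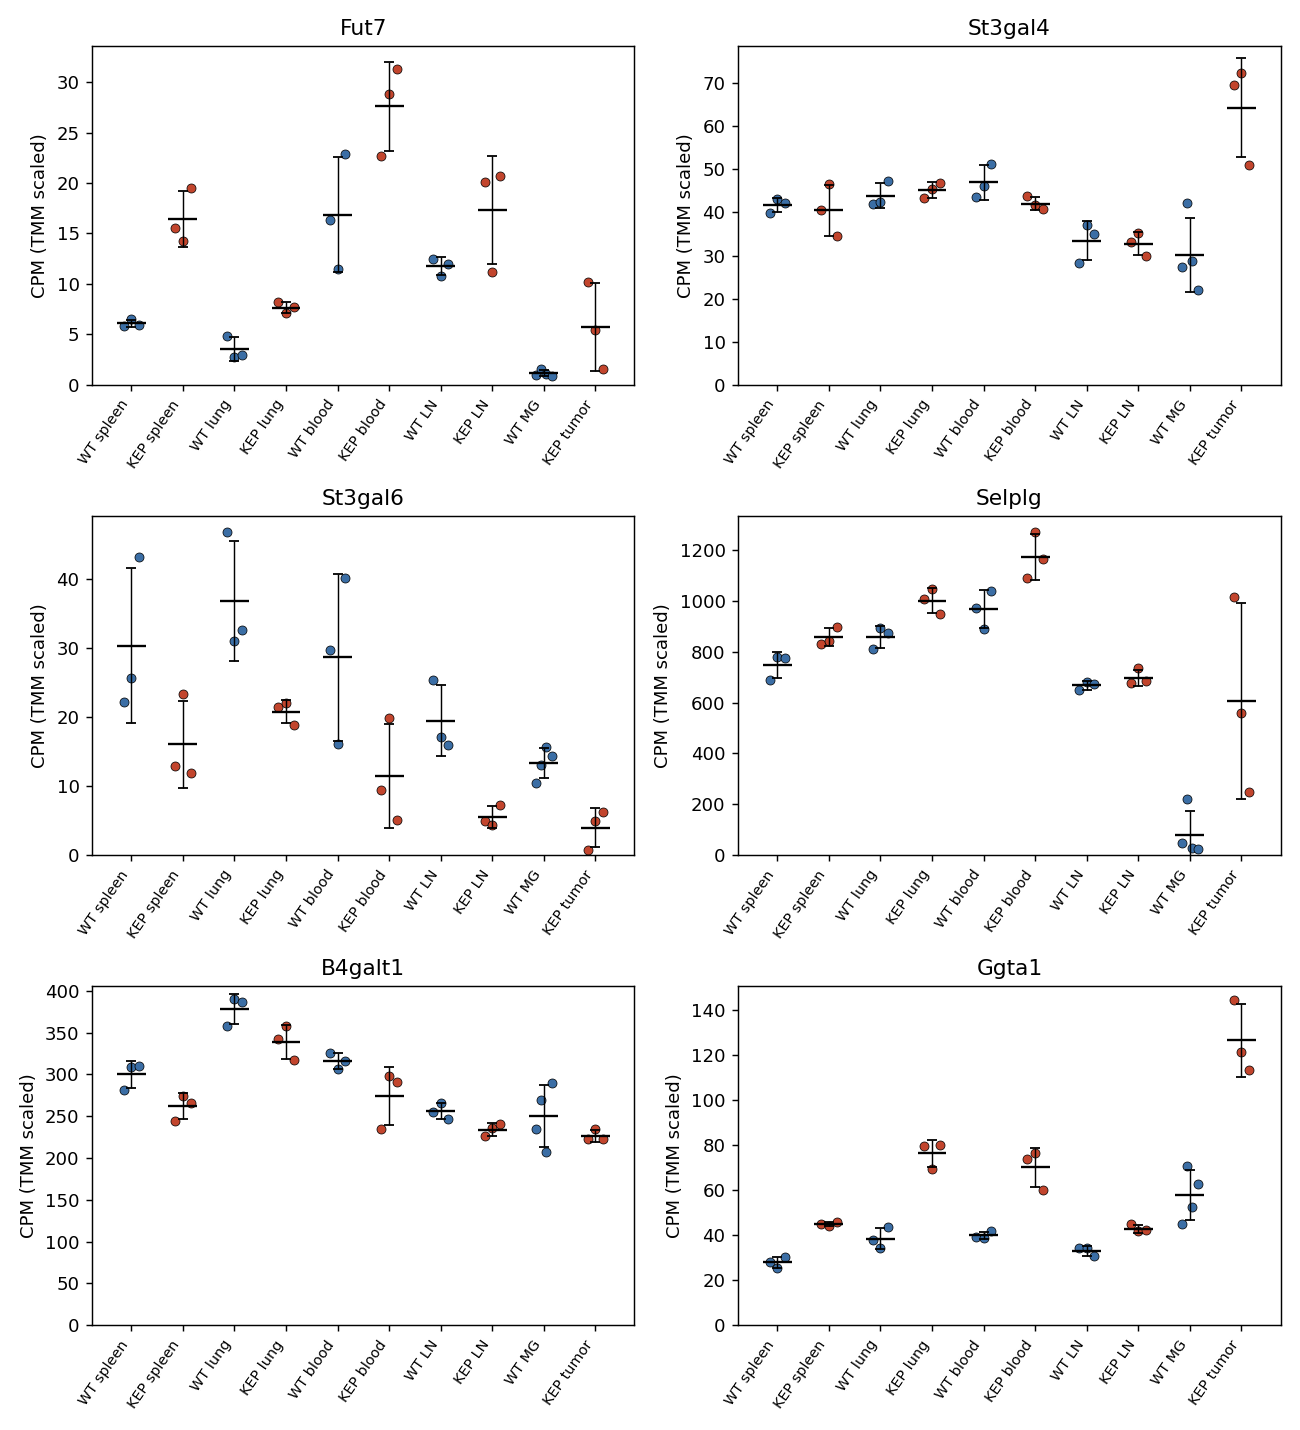
Level in CPM (vertical axes, each from 0) of 6 members in the 31 libraries by group (LN lymph node, MG mammary gland); blue points are WT pools, red points KEP mice, lines means and bars SD. Selplg falls to 23.5 to 219 CPM in mammary gland, and Ggta1 is highest in tumor at 113 to 145 CPM.

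Compared per kilobase of exon in WT spleen, Selplg was highest at 175 ± 11.7 CPM per kilobase. B4galt1 followed at 70.9 ± 3.76, St3gal4 at 14.3 ± 0.573, Ggta1 at 5.94 ± 0.510, St3gal6 at 4.92 ± 1.83, Fut7 at 2.59 ± 0.153, Gcnt1 at 2.09 ± 0.282 and Fut4 at 0.0301 ± 0.0355. Ggta1 and St3gal6, neighbours in this order, did not differ beyond their spread, and Gcnt1 and Fut7 were the lowest but for Fut4. In KEP blood the level per kilobase was 12.7 ± 1.29 for Gcnt1 and 11.7 ± 1.88 for Fut7.

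Tumor and mammary gland are compared next, and the content of T cell RNA differed among these libraries. Gcnt1 was at 56.3, 63.1 and 49.0 CPM in tumor and 42.7, 32.8, 37.5 and 30.2 CPM in mammary gland. No gland library reached the tumor libraries, and the log2 difference was 0.65 (SE 0.16), but with libraries scaled to the 10 pan-T genes it turned to -2.80. Expressed against the pan-T sum of the same library, Gcnt1 was at 0.821% to 2.35% in tumor, 1.57% to 20.96% in gland and 0.176% to 1.31% in the 24 libraries of the other tissues.

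Selplg was at 1014, 559 and 246 CPM in tumor and 48.6, 219, 26.1 and 23.5 CPM in mammary gland. The log2 difference of 2.94 (SE 0.50, adjusted p = 3.84e-05 by edgeR) became 0.26 (adjusted p = 0.314) with scaling to the pan-T genes. As a share of the pan-T sum Selplg was at 9.93% to 14.6% in gland, 11.8% to 14.8% in tumor and 10.4% to 20.3% in the other 24 libraries. Within tumor, and within gland apart from replicates 3 and 4, Selplg followed the order of the pan-T share, and Gcnt1 did not.

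**Figure D4:**
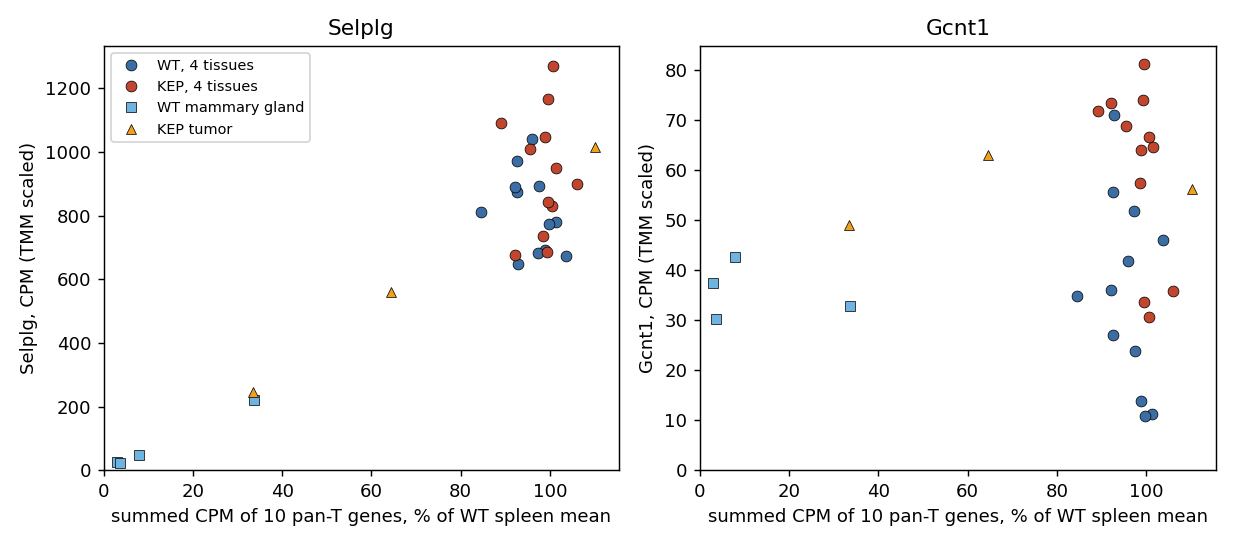
Level in CPM of Selplg (left) and Gcnt1 (right) against the summed CPM of 10 pan-T genes, in percent of the WT spleen mean, 1 point per library. Selplg is lowest, at 23.5 to 48.6 CPM, in the 3 gland libraries with 2.87% to 7.85% of the pan-T sum, in which Gcnt1 is at 30.2 to 42.7 CPM.

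Of the 7 tested members 4 were called higher and 1 lower in tumor than in gland, where 53% of all genes were called, 23.5% higher and 29.5% lower. Ggta1 was at 145, 122 and 113 CPM in tumor and 45.2, 70.9, 52.6 and 62.6 CPM in gland, without overlap, at a log2 difference of 1.13 (SE 0.12, adjusted p = 6.88e-08 by edgeR) that turned to -2.29 with pan-T scaling. St3gal4 was at 69.5, 72.4 and 51.1 CPM in tumor and 27.4, 42.1, 28.8 and 22.03 CPM in gland, at 1.10 (SE 0.15, adjusted p = 2.70e-06), which turned to -2.24 with pan-T scaling. The direction of both therefore rests on the scaling. Fut7 was at 10.2, 5.43 and 1.54 CPM in tumor and 0.983, 1.55, 1.11 and 0.895 CPM in gland, with overlap, at 2.33 (SE 0.39, adjusted p = 2.91e-05), which turned to -1.32. Tumor replicate 3, with the lowest Fut7 and Selplg of the tumors, had a pan-T share of 33.4%.

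St3gal6 was the member called lower in tumor, at 0.786, 4.98 and 6.17 CPM against 10.51, 13.04, 15.6 and 14.3 CPM in gland, without overlap. Its log2 difference was -1.74 (SE 0.48, adjusted p = 0.00371 by edgeR), and it was not called with the 7 libraries alone (adjusted p = 0.0772). Fut4 was at 0.589, 5.96 and 5.21 CPM in tumor and 8.47, 2.33, 6.08 and 8.40 CPM in gland, with overlap (adjusted p = 0.347). B4galt1 was at 223, 235 and 222 CPM in tumor and 235, 270, 207 and 290 CPM in gland, with overlap (adjusted p = 0.223). Both were called lower with pan-T scaling. Macrophage and monocyte marker sums were 749 to 5209 CPM in tumor and 68.0 to 153 in gland, and epithelial sums 159 to 2174 in tumor and 4686 to 6475 in gland. Their part in these results was not tested.

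Within KEP mice, tumor libraries were set against spleen, where 61.5% of all genes were called. Ggta1 (log2 difference 1.49, SE 0.13, adjusted p = 1.61e-09 by edgeR) and St3gal4 (0.67, SE 0.16, adjusted p = 0.00112) were higher in tumor. Fut7 (-1.52, SE 0.38, adjusted p = 0.00136) and St3gal6 (-2.01, SE 0.50, adjusted p = 0.00129) were lower. Of the 6 tested members other than Fut4, 4 were thus called. Fut4 was at 0.168, 0.301 and 0.312 CPM in KEP spleen and passed the filter only through gland and tumor, so its difference is not read as a result. With the 6 libraries alone neither Fut7 (adjusted p = 0.0942) nor St3gal6 (adjusted p = 0.0647) passed. With pan-T scaling Fut7 was at -1.10 (adjusted p = 0.0971) and St3gal6 at -0.86 (adjusted p = 0.369), again not called. Gcnt1 was higher in all 3 tumors than in the 3 KEP spleens, at 0.75 (SE 0.17), or 1.59 with pan-T scaling.

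Other genes of the pathway came from a list of 58 genes for the synthesis, sulfation, transport, carriers and receptors of selectin ligands, of which 57 were in the file and 55 were tested. In KEP blood 2 of 55 were called higher and 0 lower. They were Galnt1, which starts O-glycans, at 237 ± 4.07 against 167 ± 4.71 CPM (0.51, SE 0.10, adjusted p = 0.00783 by edgeR), and Slc35a3, the transporter of UDP-N-acetylglucosamine, at 49.998 ± 1.55 against 36.4 ± 2.44 CPM (0.46, SE 0.13, adjusted p = 0.0424). In lung 2 of 55 were called higher and 0 lower. Galnt1 was at 258 ± 14.97 against 187 ± 5.98 CPM (0.46, SE 0.10, adjusted p = 0.0167) and Fut8, which adds core fucose to N-glycans, at 67.7 ± 4.86 against 43.4 ± 3.72 CPM (0.64, SE 0.16, adjusted p = 0.0333). In spleen and lymph node 0 of 55 were called by edgeR on 31 libraries. The fit of 24 libraries called 11 in blood, 4 in spleen, 16 in lung and 0 in lymph node. Calls in that fit rose for all genes too. They were 16.12% of the genes tested on 31 libraries in blood, 3.263% in spleen, 15.64% in lung and 0.8749% in lymph node. On 31 libraries the pathway shares of 3.64% in blood and lung stood beside 4.32% and 3.09% of all genes. Leaving out 1 of the libraries compared gave 1 pathway call in blood in each fit and 0 to 3 in lung, and scaling to the pan-T genes gave 0 in both.

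Other genes of the list, set as examples, gave these values. Spn, another mucin carrier, was at 1813 ± 73.6 against 1506 ± 147 CPM in KEP and WT blood (0.27, SE 0.49, adjusted p = 0.856 by edgeR). Cd44, a carrier of E-selectin ligands, was at 547 ± 40.1 against 407 ± 28.9 CPM in lung (0.43, SE 0.30, adjusted p = 0.473). C1galt1, which makes the core 1 substrate of GCNT1, was at 47.0 ± 5.90 against 30.8 ± 1.41 CPM in lung (0.61, SE 0.20, adjusted p = 0.0958). St3gal1, which caps core 1 with sialic acid before it can branch, was at 204 ± 8.23 against 141 ± 22.8 CPM in lung (0.53, SE 0.17, adjusted p = 0.0908). Tpst2, a tyrosine sulfotransferase, differed by -0.15 to 0.02, and none of these genes was called between genotypes in any of the 4 tissues.

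Between WT tissues, the pathway genes called against spleen numbered 3 of 55 in blood (5.45%, beside 7.88% of all genes), 13 in lung (23.6%, beside 27%) and 2 in lymph node (3.64%, beside 1.95%). Leaving out 1 of the libraries compared gave 1 to 3, 6 to 11 and 0 to 1, and pan-T scaling gave 0 in each. In lung 9 were lower, among them Slc35c1, the Golgi transporter of GDP-fucose, at 50.8 ± 3.43 against 122 ± 8.59 CPM (-1.26, SE 0.13, adjusted p = 1.15e-07 by edgeR), and Fpgt at 24.8 ± 3.37 against 41.2 ± 4.38 CPM (-0.73, SE 0.14, adjusted p = 2.52e-04). St6galnac4, a sialyltransferase of O-glycans, was lower too (-0.85, SE 0.20, adjusted p = 0.00195). The 4 higher in lung included Fut8 (0.53, SE 0.17, adjusted p = 0.0179) and Cmas, which activates sialic acid (0.46, SE 0.14, adjusted p = 0.0194). In blood Cmas (0.57, SE 0.14, adjusted p = 0.0157) and B4galt5 (0.82, SE 0.23, adjusted p = 0.0306) were higher. Chst2, a sulfotransferase, was lower in blood at 13.4 ± 3.26 against 28.8 ± 5.26 CPM (-1.10, SE 0.25, adjusted p = 0.00796). In lymph node B4galt4 was higher (1.10, SE 0.29, adjusted p = 0.0454), and Gcnt2, which makes I branches, was lower at 0.310 ± 0.176 against 5.32 ± 2.73 CPM (adjusted p = 0.0231).

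In tumor against gland, 17 of 55 pathway genes were called higher and 12 lower, so 52.7% beside 53% of all genes, and with pan-T scaling 0 were higher and 47 lower. The higher ones included B4galt5 (102 ± 22.7 CPM in tumor against 16.9 ± 9.22 in gland), Chst2 (61.3 ± 6.34 against 10.3 ± 3.57) and Galnt1 (235 ± 35.0 against 119 ± 5.97). The endothelial selectins Selp, at 10.3 ± 8.52 CPM in tumor and 313 ± 111 in gland, and Sele, at 3.08 ± 2.49 and 129 ± 32.3 CPM (adjusted p = 2.42e-08 and 4.25e-06 by edgeR), were lower in tumor. The sum of 5 endothelial genes moved with them, from 122 to 411 CPM in tumor and from 963 to 1541 in gland, and its part was not tested. Tumor against KEP spleen gave 24 higher and 13 lower, so 67.3% beside 61.5% of all genes. The higher ones included Tpst1 (24.6 ± 10.1 CPM in tumor against 5.08 ± 0.246 in KEP spleen), B4galt6 (17.7 ± 10.5 against 0.136 ± 0.127) and B4galt2 (11.3 ± 5.89 against 0.0809 ± 0.0839). B4galt6 and B4galt2 were thus near 0 in KEP spleen. The lower ones included St6gal1, which adds alpha-2,6 sialic acid, at 97.3 ± 15.3 against 397 ± 18.95 CPM, and Slc35c1 at 34.5 ± 8.23 against 126 ± 6.40 CPM.

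The genes whose pattern was most like that of Gcnt1 were found by Pearson correlation of log2 CPM over the 24 libraries of the 4 tissues, among 10509 genes. They were Itgae (r = 0.964), Plp2 (0.926), Cdc42bpb (0.915), Col18a1 (0.910) and Arnt2 (0.909). The libraries share depth, tissue and genotype groups, so the values describe a common pattern over groups. Itgae, which encodes the alpha E integrin CD103, was at 94.7, 104 and 92.4 CPM in WT spleen and 363, 436 and 432 CPM in KEP spleen. In all 31 libraries r was 0.59 for Itgae and 0.83 for Plp2. Of the members, Ggta1 (0.67) and Fut7 (0.59) were most like Gcnt1, followed by Selplg (0.27), St3gal4 (-0.28), B4galt1 (-0.30) and St3gal6 (-0.52).

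**Figure D5:**
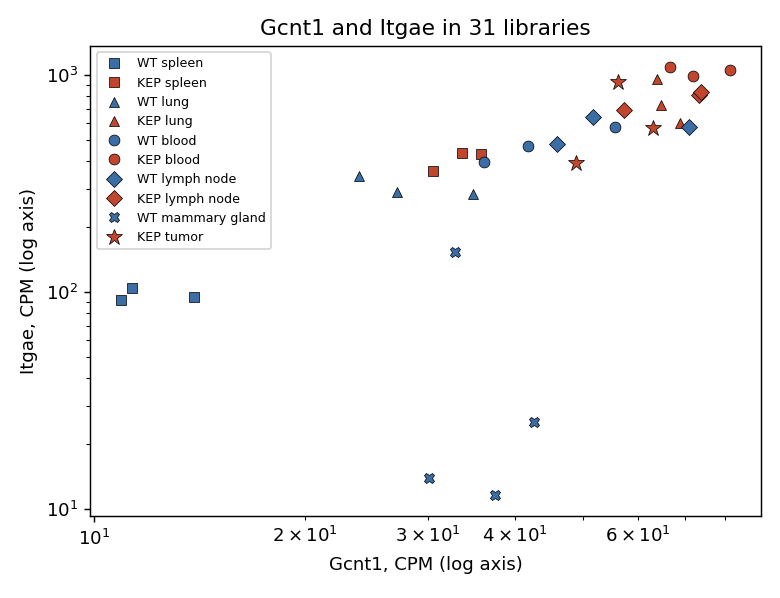
Itgae against Gcnt1, both in CPM on log axes, 1 point per library with shape for tissue and color for genotype (blue WT, red KEP). WT spleens sit lowest on both axes among the 24 libraries of the 4 tissues, and 3 of the 4 mammary gland libraries have less Itgae, at 11.6 to 25.2 CPM, than any other library.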

How the data were processed

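Values were raw counts of reads per gene as deposited, for 24594 genes; 172 had no read in any library. The authors sequenced stranded TruSeq mRNA libraries as 65-base single reads, per the labels' protocols, and the submitters' processing notes name TopHat2 2.1.0, TopHat, HTSeq and GRCm38; the annotation and strand setting of the counting are not given in the sources used here. Antisense or nested genes therefore make some counts uncertain. Exon lengths came from GENCODE M21, whose build matches.

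Counts were fitted with edgeR 4.0.16 (R 4.3.3): TMM factors, filterByExpr at a minimum count of 10, 1 mean per group over 31 libraries, robust quasi-likelihood F tests, and Benjamini-Hochberg adjustment over 15202 genes with calls at an adjusted p under 0.05. The method was tested on simulated data. Alternatives were RLE factors, scaling to 10 pan-T genes, no filter or a minimum of 50, 24 libraries without tumor and gland, DESeq2 1.42.0, only the libraries compared, limma-voom (limma 3.58.1), a date block and leaving out each library; leaving them out within the 24 was added after seeing the data. WT pools and KEP mice are separate samples, and a chi-square of 4.67 to 189 per degree of freedom between replicates left no duplicate.

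All members are named. Pathway genes were named when called, with up to 3 each way of smallest p at 5 CPM or more, beside set examples, of which 1 is not reported here; likeness to Gcnt1 used genes of at least 5 CPM on average. The members and lists were chosen with earlier results of these data known. Title dates recur across tissues of a genotype. Deviations from the group means correlated above 0.1 in 18 of 18 same-date KEP pairs within the 4 tissues (median 0.265) and 7 of 18 WT pairs (0.0897), but in 1 of 12 KEP and 0 of 12 WT pairs with tumor or gland (medians -0.00254 and -0.00331). The date was used as the pairing between tissues, in alternatives only.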

Additional observations from a re-analysis of the deposited data

Results flagged for a closer look

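Selplg in the 4 WT mammary gland libraries was singled out because 1 value lay far from the rest: its gap to the nearest library was 0.872 of the whole range, from 23.5 to 219 CPM. The high value belongs to replicate 2, whose pan-T sum was 33.7% of the WT spleen mean against 2.87% to 7.85% in the other 3 gland libraries. The rule was applied to 8 genes in this group, and chance alone marks about 1 in 20 such groups.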

How the results depend on the processing

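Of 1408 values of single members under alternative settings, 1321 stayed on their side of the threshold, 54 passed it anew, 28 lost it, 4 reversed and 1 moved. Of the 1321, 20 had the other sign, and none of these was called in either fit. The log2 difference of Gcnt1 between KEP and WT stayed between 0.59 and 0.91 in blood, 1.41 and 1.58 in spleen, 1.09 and 1.37 in lung, and 0.16 and 0.48 in lymph node when 1 library was left out, and it kept its sign under all other settings run. Scaling to the pan-T genes reversed tumor against gland for Gcnt1 (-2.80), Fut7 (-1.32), St3gal4 (-2.24) and Ggta1 (-2.29). The median over all genes went from -0.10 to -3.49 there, from 0.13 to 1.00 in tumor against KEP spleen, to -0.10 in KEP against WT lung and to 0.14 in WT lung against spleen, and by under 0.1 elsewhere. RLE factors moved it from 0.13 to 0.24 in tumor against KEP spleen.

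Counts of calls are given for members other than Gcnt1 (Fut4 included) first, then for all genes. Both counts of 3 members for tumor against KEP spleen include Fut4, whose difference there is not read as a result. With pan-T scaling KEP against WT gave 0 and 4 in blood, 0 and 5 in spleen, 0 and 0 in lung, and 0 genes in lymph node; against WT spleen, WT blood gave 0 and 96, lung 0 and 641, and lymph node 45 genes; tumor gave 14163 genes against gland, and 3 and 5835 against KEP spleen. With 24 libraries the counts were 4 and 2451 in blood, 2 and 496 in spleen, 2 and 2377 in lung, 133 genes in lymph node, 3177 genes in WT blood, 1 and 1105 in WT lymph node, and 39 genes for the difference among tissues. With only the libraries compared they were 1706 genes in blood, 2 and 648 in spleen, 3 and 1632 in lung, and 2 and 305 in lymph node. Tumor then gave 3701 genes against gland, and 3 and 6442 against KEP spleen. Against WT spleen, WT blood gave 2478 genes and WT lymph node 1 and 1398. DESeq2 gave 1070 genes in blood, 2 and 176 in spleen, 960 in lung, 1 and 40 in lymph node, 460 in WT lymph node and 18 for the difference among tissues. Without a filter 382 genes were called in blood, 264 in lung and 1 member in WT lung. Limma-voom called 45 genes in spleen and 1 in lymph node. Leaving out each library gave 155 to 489 genes in blood, 25 to 63 in spleen, 40 to 413 in lung and 1 to 5 in lymph node, and 544 to 926 in WT blood, 3204 to 3396 in WT lung and 148 to 179 in WT lymph node. Members called were then 1 to 2 in blood, 0 to 1 in spleen, and 0 to 2 in WT blood and in WT lung. The cause of these shifts was not tested.

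With the date as a replicate block, limma-voom called 5 genes in lymph node (1 without the block) and edgeR 5 pathway genes instead of 3 in WT blood, and no call of a member changed. Pathway calls with 24 libraries were 12 in WT blood, 23 in WT lung and 8 in WT lymph node. Calls among all genes in that fit were 20.9%, 39.17% and 7.269% of the genes tested with all libraries. With only the libraries compared, pathway calls were 9, 3 and 12 in KEP against WT blood, spleen and lung, and 14 for tumor against gland.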
